A study of Rattus norvegicus with 6 samples.

Results

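The mitochondrially encoded respiratory chain genes were followed in RNA sequencing libraries of rat bone (Rattus norvegicus), 3 from exercised animals and 3 from controls. The set holds 10 of the 32883 genes in the deposited count table, chosen by Ensembl gene identifier and not by any measured value. The genes of complex I are Mt-nd1 (ENSRNOG00000030644), Mt-nd2 (ENSRNOG00000031033), Mt-nd4 (ENSRNOG00000029707), Mt-nd5 (ENSRNOG00000029971) and Mt-nd6 (ENSRNOG00000029042) of complex I. Complex III is represented by Mt-cyb (ENSRNOG00000031766) and complex V by Mt-atp6 (ENSRNOG00000031979). Complex IV is represented by Mt-co1 (ENSRNOG00000034234), Mt-co2 (ENSRNOG00000030371) and Mt-co3 (ENSRNOG00000030700). All 10 identifiers were present in the table, and all 10 passed the filter on low counts. The names come with the list that defined the set. The annotation used here, a RefSeq gene table of rat assembly GRCr8, lists 0 genes on the mitochondrial chromosome and so neither backs nor contradicts them. The other mitochondrially encoded subunits and the mitochondrial ribosomal RNAs were not analysed here.

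The exercised group carries the treatment label exercise, and the series title names treadmill running of moderate intensity in adult rats; the control group carries the treatment label no. Both groups are labelled WT and bone, with the cell type written oeteocyte, read here as osteocyte, the cell embedded in mineralised matrix. The design text gives 3 rats per group. The sources used here do not give strain, sex, bone site or the length of training. Libraries were made from total RNA, and whether polyadenylated RNA was selected or ribosomal RNA removed is not stated. No marker gene of osteocytes, marrow, muscle, cartilage or fat could be matched to the identifiers of the table, so the tissue label could not be checked.

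Mitochondrial DNA is a small circular genome present in many copies per cell, and it encodes core subunits of 4 of the complexes that carry out oxidative phosphorylation. Complex I takes electrons from NADH, complex III passes them from ubiquinol to cytochrome c, complex IV hands them to oxygen, and complex V uses the resulting proton gradient to make ATP. In mammals these genes are transcribed as long precursors from both strands and then cut into single messages. Mt-nd6 is the only one of the protein genes read from the light strand. Because the messages share precursors, their levels are set jointly by transcription and individually by processing and decay. Their abundance is high in tissues with a high oxidative demand, such as heart, muscle and brown fat.

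The 6 libraries held between 14056743 and 18126584 counts. The first principal component of all 14495 tested genes carried 65.3% of the variance, spread the libraries within each group and did not part the groups. Scores on it were -3.46, 1.52 and 116.8 in exercised replicates 1, 2 and 3, against -41.5, 52.7 and -126.1 in control replicates 1, 2 and 3.

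Mitochondrially encoded messages took a large and uneven part of each bone library. The 10 genes together held 20.3%, 13.96% and 7.98% of all counts in exercised replicates 1, 2 and 3, against 21.2%, 13.8% and 16.7% in control replicates 1, 2 and 3. The groups overlapped: exercised replicate 3 was the lowest of all, exercised replicate 1 lay close to the highest control, and exercised replicate 2 lay next to the lowest control. The mean share was 14.1 ± 6.15% in exercised bone and 17.2 ± 3.70% in control bone (SD, n = 3 each). By a two-sided exact permutation test, in which 3 libraries against 3 can give no p below 0.1, the difference of -3.14 percentage points had a p of 0.5. Without exercised replicate 3 the difference was -0.096 percentage points, and without exercised replicate 1 it was -6.24.

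**Figure D1:**
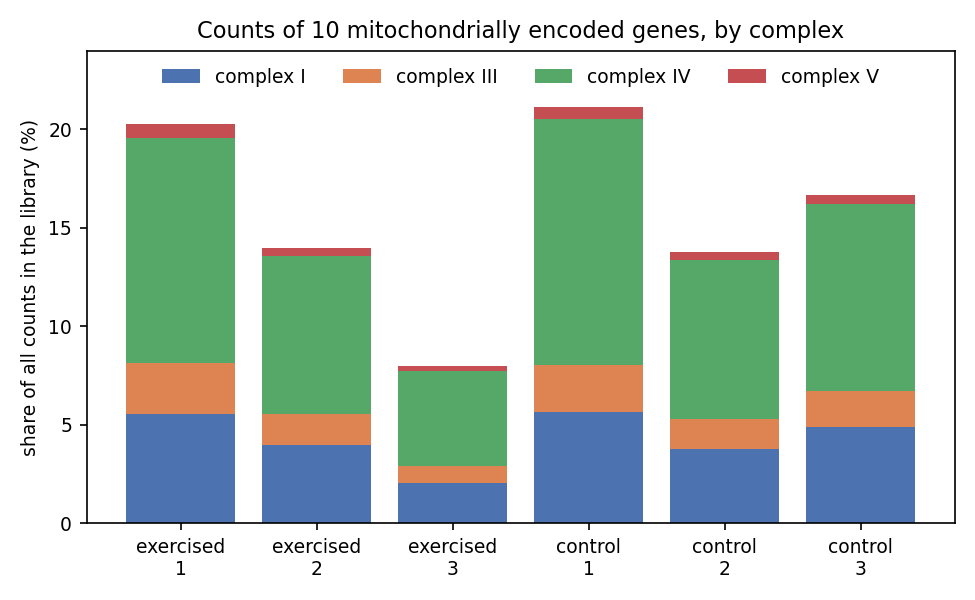
Stacked bars give the share of all counts in each library (y axis, %) held by the genes of complexes I, III, IV and V, with the 3 exercised libraries on the left and the 3 control libraries on the right. The height runs from 7.98% (exercised replicate 3) to 21.2% (control replicate 1), and complex IV is the tallest part of every bar.

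Counting error was small against these differences. The 95% Wilson interval of the share ran from 7.97 to 7.995% in exercised replicate 3 and from 21.1 to 21.2% in control replicate 1; such intervals cover counting error only. Within the exercised group the share differed 2.54-fold between replicates 1 and 3. Within the control group it differed at most 1.53-fold, between replicates 1 and 2. In order from high to low, the shares of control replicate 1 and exercised replicate 1 differed 1.04-fold, and those of exercised replicate 2 and control replicate 2 differed 1.01-fold. These neighbours from different groups were closer to each other than the libraries of 1 group were among themselves. In bulk bone, fewer cells rich in mitochondria and less mitochondrial RNA per cell cannot be told apart.

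A share of counts also depends on the other abundant genes in a library. The single most abundant gene outside the set took 2.92%, 4.13% and 3.93% of counts in exercised replicates 1, 2 and 3, against 3.04%, 2.20% and 6.25% in control replicates 1, 2 and 3. With the 100 most abundant other genes left out of the denominator, the mitochondrial share was 27.8%, 20.3% and 10.4% in the exercised libraries, against 27.6%, 17.8% and 25.5% in the controls. The groups overlapped again (exact permutation p = 0.7).

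Scaled to CPM, counts relative to library size and corrected for library composition by TMM, the summed level of the 10 genes was 215742, 139826 and 68370 CPM in exercised replicates 1, 2 and 3. In control replicates 1, 2 and 3 it was 223433, 114311 and 210238 CPM. The 3 libraries with the lowest scores on the first principal component (control replicates 3 and 1 and exercised replicate 1) had the 3 highest summed levels, and exercised replicate 3, at the upper end of the component, had the lowest. The level did not follow the score closely. Exercised replicates 1 and 2 had near scores, -3.46 and 1.52, but 215742 and 139826 CPM. Control replicate 3, with the lowest score, had less than control replicate 1. The component is computed from the same table, in which the 10 genes are a small part, and what moves the libraries along it was not tested.

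**Figure D2:**
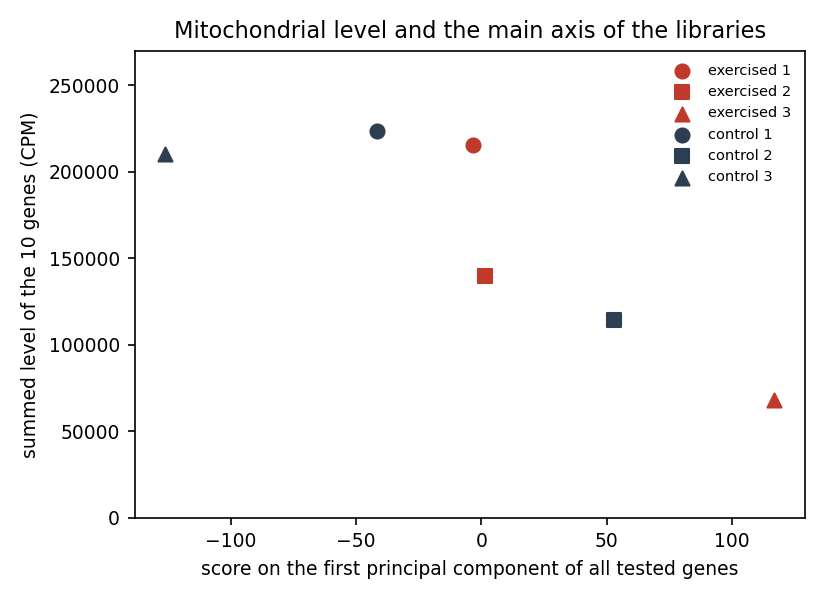
Each point is 1 library, placed by its score on the first principal component of log2 CPM over all tested genes (x axis, no unit) and by the summed CPM of the 10 mitochondrially encoded genes (y axis). Control replicates 1 and 3 lie high and left of the middle, and exercised replicate 1 lies high near the middle with a score of -3.46. Exercised replicate 3 lies at the bottom right with a score of 116.8 and 68370 CPM.

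No mitochondrially encoded gene differed between exercised and control bone by the test used. All 10 log2 fold differences were below 0, from -0.56 for Mt-nd4 to -0.21 for Mt-nd1, with a median of -0.36, where the median over all tested genes was 0.01. Their standard errors ran from 0.53 to 1.31, against a median of 0.42 over all tested genes. Adjusted p-values from edgeR's quasi-likelihood test lay between 0.889 and 0.966, and unadjusted ones between 0.353 and 0.824. Thus 0 of the 10 passed an adjusted p of 0.05, as did 0% of all 14495 genes; at an unadjusted p of 0.05 there were 0 of the 10 and 1.70% of all genes. In none of the 10 did the CPM of the exercised libraries lie wholly above or wholly below the controls, which was the case in 7.37% of all genes. DESeq2's Wald test called none of the 10 either, with an adjusted p of 0.994 for each and unadjusted p-values from 0.217 to 0.687. Its standard errors were closer together, from 0.45 for Mt-nd6 to 0.58 for Mt-nd1. For Mt-co1 DESeq2 gave 0.51 where edgeR gave 1.31, so the size of the standard error depended on the method.

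The common direction rested on exercised replicate 3, which held the lowest CPM of all 6 libraries in each of the 10 genes. Of the 9224 genes that averaged 10 CPM or more, 32.8% were lowest in that library. Without it, the fold differences of Mt-nd1, Mt-nd2, Mt-atp6, Mt-co3 and Mt-cyb turned positive, and the 10 values ran from -0.27 to 0.17. The 10 values come from the same libraries, and the messages of 1 strand share precursors, so they do not count as separate observations of a direction.

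**Figure D3:**
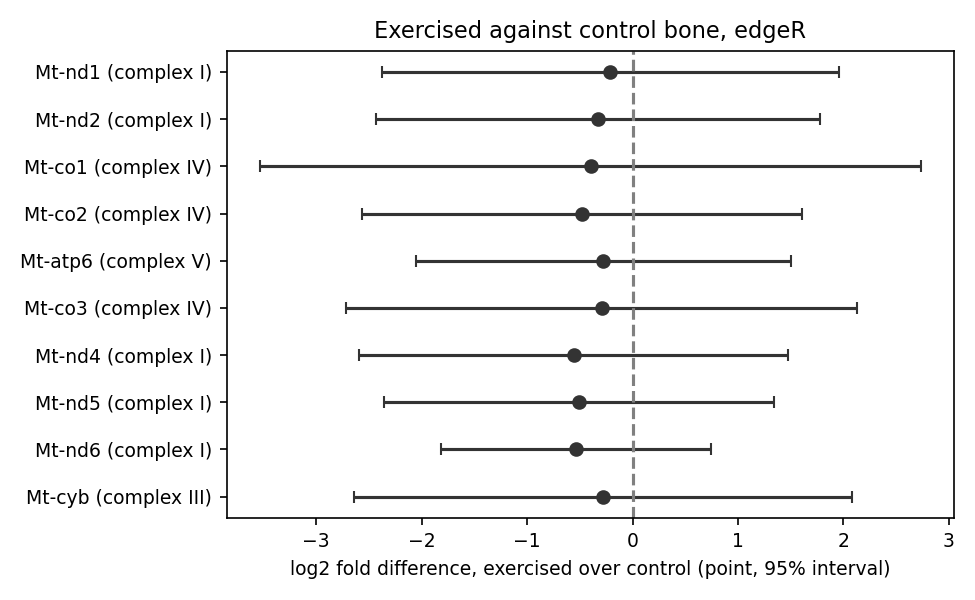
Points give the log2 fold difference of exercised over control bone for each gene (x axis) by edgeR, and bars give the 95% interval. Every point lies between -0.56 and -0.21, and every interval spans 0; the widest is that of Mt-co1 and the narrowest that of Mt-nd6.

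The genes of complex I showed the whole range of these values. Mt-nd1, a membrane subunit close to the site where ubiquinone binds, had 18479, 12033 and 4701 CPM in exercised replicates 1, 2 and 3, against 15433, 8246 and 17022 CPM in control replicates 1, 2 and 3. Exercised bone thus held both the highest and the lowest library. The log2 fold difference of Mt-nd1 was -0.21 (SE 0.90, edgeR adjusted p = 0.966, n = 3 each).

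Mt-nd4 and Mt-nd5, proton-pumping subunits of the membrane arm, had more negative estimates. Mt-nd4 had 12828, 10580 and 4473 CPM in exercised replicates 1, 2 and 3, against 16532, 8435 and 16094 CPM in control replicates 1, 2 and 3, a log2 fold difference of -0.56 (SE 0.85, edgeR adjusted p = 0.904). Mt-nd5 had 9396, 5222 and 2942 CPM in the exercised libraries, against 10256, 5222 and 9497 CPM in the controls, a log2 fold difference of -0.51 (SE 0.77, edgeR adjusted p = 0.904). In both genes control replicate 2 lay among the exercised libraries. Mt-nd2, another membrane arm subunit, had a log2 fold difference of -0.33, with 4664 to 16294 CPM in exercised bone and 8036 to 16758 CPM in control bone.

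Mt-nd6, the complex I gene of the light strand, had the fewest counts of the set, from 14484 to 35664 per library. Its level was 1917, 1375 and 822.3 CPM in exercised replicates 1, 2 and 3, against 2431, 1332 and 2188 CPM in control replicates 1, 2 and 3. The log2 fold difference was -0.53 (SE 0.53, edgeR adjusted p = 0.889), with a 95% interval from -1.81 to 0.75. Whether the counting used strand is not stated, and without it reads from Mt-nd6 and from the opposite strand of the same stretch cannot be told apart.

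Mt-cyb, which encodes cytochrome b, the only complex III subunit made in the mitochondrion, had 27652, 15367 and 7177 CPM in exercised replicates 1, 2 and 3. In control replicates 1, 2 and 3 it had 25132, 12638 and 23039 CPM. Exercised replicate 1 was the highest of all libraries and exercised replicate 3 the lowest, and the log2 fold difference was -0.28 (SE 0.98, edgeR adjusted p = 0.960).

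In complex IV, Mt-co1 encodes the catalytic subunit that reduces oxygen. It was the most counted gene of the whole table in exercised replicates 1 and 2 and in control replicates 1 and 2, and ranked 2 in exercised replicate 3 and control replicate 3; ranks by count depend on transcript length. The level of Mt-co1 was 75058, 47627 and 25219 CPM in exercised replicates 1, 2 and 3, against 81665, 41276 and 71973 CPM in control replicates 1, 2 and 3. These values overlapped, and the log2 fold difference was -0.40 (SE 1.31, edgeR adjusted p = 0.957). Mt-co2, the subunit that receives electrons from cytochrome c, had 6302 to 15763 CPM in exercised bone and 10285 to 20170 CPM in control bone, a log2 fold difference of -0.48. Mt-co3, a structural core subunit, had 10092 to 30834 CPM in exercised bone and 15285 to 30044 CPM in control bone, a log2 fold difference of -0.29.

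Mt-atp6, which forms part of the proton channel of ATP synthase (complex V), had 7521, 3893 and 1978 CPM in exercised replicates 1, 2 and 3, against 6717, 3556 and 5942 CPM in control replicates 1, 2 and 3. As with Mt-cyb, exercised bone held both ends of the range. The log2 fold difference of Mt-atp6 was -0.28 (SE 0.74, edgeR adjusted p = 0.946). In its overlapping gene arrangement with the other mitochondrial ATP synthase gene, counts may be split between the pair, and reads shared with nuclear copies of mitochondrial DNA are uncertain for every gene of the set.

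Across the 6 libraries the highest CPM exceeded the lowest 2.96-fold for Mt-nd6 and 3.93-fold for Mt-nd1, with the other 8 genes in between. Over the genes that averaged 10 CPM or more, the median of this range was 2.23-fold, and 35.5% of them varied more than Mt-nd6 and 25.1% more than Mt-nd1. The mitochondrially encoded genes were therefore among the more variable part of the table without standing at its extreme. Outside the set, the genes whose log2 CPM followed the summed mitochondrial level most closely were ENSRNOG00000015142 and ENSRNOG00000048309, which the sources used here do not name. ENSRNOG00000015142 had 49.0, 37.0 and 22.7 CPM in exercised replicates 1, 2 and 3, against 50.6, 31.3 and 49.3 CPM in control replicates 1, 2 and 3. ENSRNOG00000048309 had 68.5, 50.7 and 26.7 CPM in the exercised libraries, against 72.7, 40.1 and 71.4 CPM in the controls. Their Pearson coefficients of 0.999 and 0.997 over 6 libraries are the highest picked from 9194 genes, of which 956 exceeded 0.9, and are given as a description only.

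The balance between complexes is independent of scaling between libraries, since it compares genes within a library. Counts are not scaled by transcript length, so each ratio is meaningful between libraries and not as a level of one complex over another. The summed counts of the complex IV genes were 2.06, 2.02 and 2.36 times those of complex I in exercised replicates 1, 2 and 3, against 2.21, 2.14 and 1.94 times in control replicates 1, 2 and 3. The groups overlapped, and the mean log2 ratio differed by 0.03 (two-sided exact permutation p = 0.7). While the mitochondrial share of counts varied 2.65-fold over the 6 libraries, from exercised replicate 3 to control replicate 1, this ratio stayed between 1.94 and 2.36.

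The ratios of Mt-cyb and Mt-atp6 to complex I were highest in exercised replicate 1. Complex III to complex I was 0.469, 0.385 and 0.408 in exercised replicates 1, 2 and 3, against 0.421, 0.404 and 0.374 in control replicates 1, 2 and 3. Complex V to complex I was 0.128, 0.0975 and 0.112 in the exercised libraries, against 0.112, 0.114 and 0.0965 in the controls. In both ratios exercised replicate 2 and control replicate 3 were low, and the groups overlapped.

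The ratio of complex IV to complex III lay within a narrow range in controls and a wider one in exercised bone. It was 4.40, 5.25 and 5.80 in exercised replicates 1, 2 and 3, against 5.25, 5.29 and 5.20 in control replicates 1, 2 and 3. The SD of its log2 value was 0.20 in exercised bone and 0.01 in control bone (n = 3 each), a difference in spread that was not tested. Mt-nd6 to the other complex I genes sets a light strand gene against heavy strand genes. Without stranded counting, which is not stated, it need not compare the strands themselves. This ratio was 0.0336, 0.0356 and 0.0490 in exercised replicates 1, 2 and 3. In control replicates 1, 2 and 3 it was 0.0425, 0.0445 and 0.0369. Over the 5 ratios compared, exact permutation tests (two-sided) gave raw p-values from 0.6 to 0.8 and an adjusted p of 0.8 for each.

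**Figure D4:**
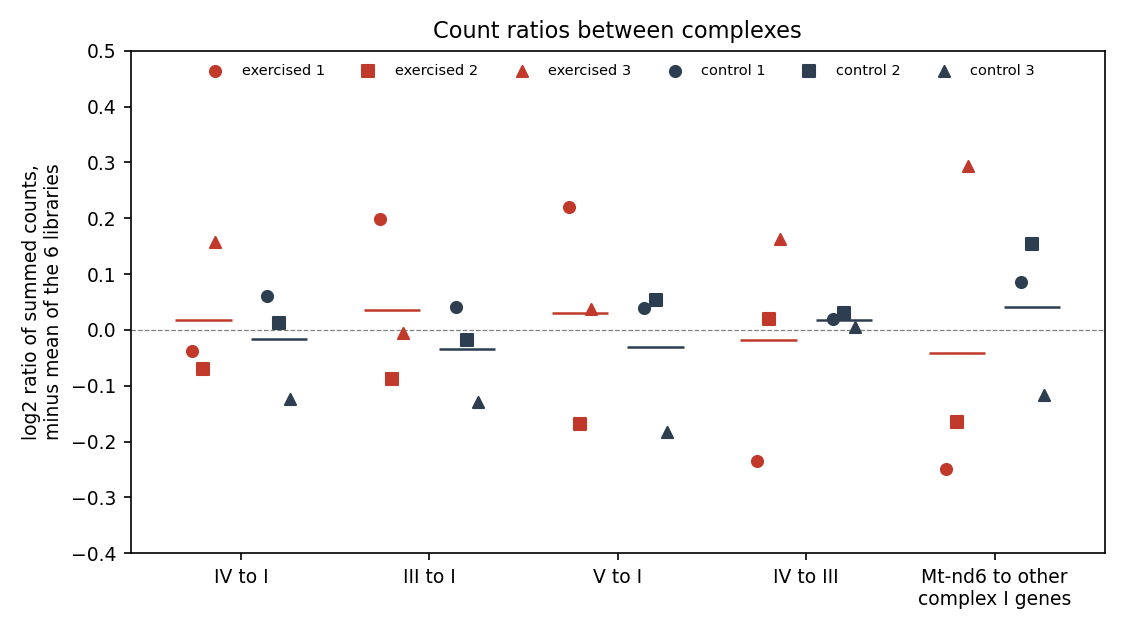
Points give the log2 ratio of summed counts in each library for 5 ratios (x axis), after subtraction of the mean over the 6 libraries (y axis), with exercised libraries left of controls and a bar at each group mean. The control points of complex IV to complex III lie together, with an SD of 0.01, and exercised replicate 1 stands highest in complex III to I and complex V to I.

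Within the set, the share that each gene took of the 10 genes' counts was far more stable than the total. From the lowest to the highest library it varied between 1.08-fold for Mt-co1 and 1.35-fold for Mt-nd6. Even so, these shifts were larger than counting error, which for the smallest count of the set, 14484, is 0.831%. Mt-co1 is a large part of the total it is divided by, which narrows the range of its share. The ratio of Mt-nd1 to Mt-co1 varied 1.36-fold. The composition of exercised replicate 1 lay farthest from the mean of the 6 libraries, with a root mean square log2 deviation of 0.17 over the 10 genes, followed by 0.11 in exercised replicate 2 and 0.10 in exercised replicate 3. The controls lay at 0.08, 0.07 and 0.07 in replicates 1, 2 and 3. This order of the groups was not tested. Exercised replicate 1 is itself part of that mean and shifts the distances of the other libraries from it.

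In exercised replicate 1, Mt-cyb and Mt-atp6 took more of the mitochondrial counts and Mt-co2, Mt-nd4 and Mt-nd6 took less than in any other library. Mt-cyb made up 12.8%, 10.99% and 10.5% of the set's counts in exercised replicates 1, 2 and 3, against 11.2%, 11.1% and 10.96% in control replicates 1, 2 and 3. Mt-co2 made up 7.31%, 9.24% and 9.22% in the exercised libraries, against 9.03%, 8.997% and 8.70% in the controls. The mean share of Mt-co2 was 8.59 ± 1.11% in exercised bone and 8.91 ± 0.18% in control bone (SD, n = 3 each), and the groups overlapped in both genes. In its total, 20.3% of counts in mitochondrial genes, exercised replicate 1 lay next to control replicate 1.

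Among the 10 shares, 2 did not overlap between groups; by CPM the groups were apart in 7.37% of all tested genes, and a count of 2 among 10 linked shares is given as a description. Mt-co3 took 14.3%, 14.4% and 14.8% of the mitochondrial counts in exercised replicates 1, 2 and 3, against 13.4%, 13.4% and 13.997% in control replicates 1, 2 and 3. All exercised libraries lay above all controls, by 0.87 percentage points in the mean (14.5 ± 0.25% in exercised bone and 13.6 ± 0.34% in control bone, SD, n = 3 each). Mt-nd5 took 4.36%, 3.73% and 4.30% in exercised replicates 1, 2 and 3, against 4.59%, 4.57% and 4.52% in control replicates 1, 2 and 3. All exercised libraries lay below all controls, at 4.13 ± 0.34% in exercised bone and 4.56 ± 0.04% in control bone. Both genes reached the smallest p that 3 against 3 allows (two-sided exact permutation p = 0.1), and neither passed after adjustment over the 10 genes (adjusted p = 0.5). The shares sum to a whole, so a gene that takes more leaves less for the others.

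**Figure D5:**
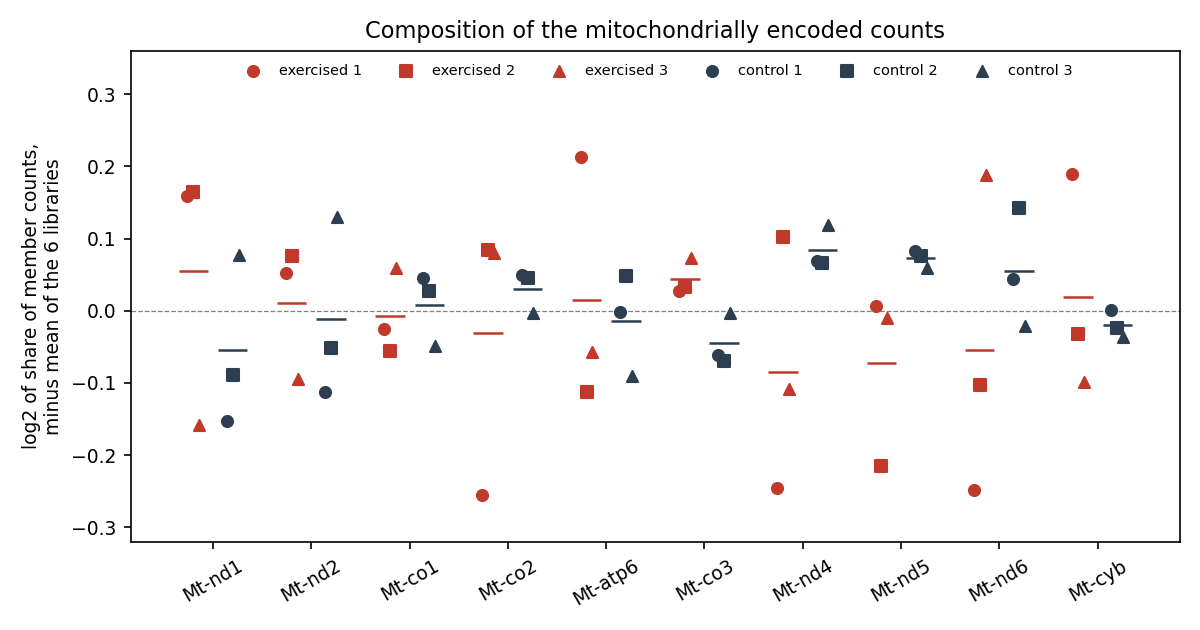
Points give, for each gene (x axis), the log2 of its share of the set's counts in a library minus the mean over the 6 libraries (y axis), with exercised libraries left of controls and a bar at each group mean. Exercised replicate 1 lies at the upper or lower end for Mt-atp6, Mt-cyb, Mt-co2, Mt-nd4 and Mt-nd6, and the groups do not overlap in Mt-co3 and Mt-nd5.

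The split inside complexes I and IV followed these lines only in part. Mt-co3 and Mt-nd5, whose shares of the set did not overlap between groups, overlapped inside their own complexes. Mt-co3 held 25.3%, 24.9% and 24.3% of the complex IV counts in exercised replicates 1, 2 and 3. In control replicates 1, 2 and 3 it held 22.8%, 22.9% and 24.6%. Mt-nd5 held 15.9%, 13.1% and 16.7% of the complex I counts in the exercised libraries, against 17.2%, 16.7% and 15.4% in the controls. Mt-nd4 took 21.8% of the complex I counts in exercised replicate 1, and 25.4 to 26.5% in the other exercised libraries, against 26.1 to 27.7% in controls. Mt-nd1 took 31.4%, 30.1% and 26.7% of the complex I counts in exercised replicates 1, 2 and 3, against 25.8%, 26.4% and 27.7% in control replicates 1, 2 and 3, with exercised replicate 3 inside the range of the controls. Within complex IV, Mt-co1 held 59.1 to 61.7% in exercised bone and 60.1 to 61.9% in control bone. Mt-co1 is the larger part of that total, which by itself narrows the range of its share. Mt-co2 held 13.0% of the complex IV counts in exercised replicate 1, whereas the other 5 libraries lay between 15.1 and 16.0%.

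The most stable ratio between single genes was that of Mt-atp6 to Mt-cyb. It was 0.272, 0.253 and 0.276 in exercised replicates 1, 2 and 3, against 0.267, 0.281 and 0.258 in control replicates 1, 2 and 3, a range of 1.11-fold over all libraries. The least stable of the 45 ratios was Mt-nd1 to Mt-nd6, a heavy strand gene over the light strand gene of the same complex. It was 9.64, 8.75 and 5.72 in exercised replicates 1, 2 and 3, against 6.35, 6.19 and 7.78 in control replicates 1, 2 and 3, a range of 1.69-fold. The values overlapped between groups in both ratios.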

How the data were processed

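The submitters' processing notes list HISAT2 2.1.0, StringTie, edgeR, fastp 0.19.5 and CASAVA 1.8, without role or order, and the builds hg38 and mm10, while the identifiers are those of rat. The sources used here give no rat build or annotation release. The deposited columns are headed FPKM, but every value is whole and the totals differ, so the values deposited by the authors were treated as raw counts. Columns were joined to samples by library name.

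Of the 32883 genes, the 14495 that passed the filter were fitted with edgeR 4.0.16 in R 4.3.3 (quasi-likelihood test, TMM factors, filterByExpr with a minimum count of 10 and a minimum total of 15, no covariate), with Benjamini-Hochberg adjustment over all of them and a threshold of 0.05. Standard errors are the absolute log2 fold difference divided by the square root of F. DESeq2 1.42.0, other scalings, no filter, a replicate block and leaving out each library were alternatives. Both count tests were run on simulated counts to check the code. The simulation gave every gene the same dispersion, so it does not measure how the tests perform at the spread of these libraries. Shares and ratios were compared by two-sided exact permutation tests (SciPy 1.17.1).

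The genes described, the tests and the lists were chosen with earlier results of these data known. All 10 genes of the set are named, with the 2 genes outside it most correlated with its summed level; the rule asked for 3, cut to 2 where no symbol is given. The lists of nuclear respiratory chain genes, regulators and cell type markers gave no value, since 0 table identifiers matched the RefSeq table of 47357 genes. Replicate numbers were not used to pair the libraries in the main fit. Columns left unused numbered 0.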

Additional observations from a re-analysis of the deposited data

How the results depend on the processing

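The number of genes changed was 0 with edgeR under every alternative, leaving out each library in turn included (0 to 0), and 1 with DESeq2, which is none of the 10. The count at an unadjusted p under 0.05 was 247 with edgeR as reported and 552 with DESeq2, and 54 without control replicate 1 to 1315 without control replicate 2. With the replicate block it was 212, with 0 genes past the threshold, and the 10 genes' log2 fold differences ran from -0.62 to -0.32. Deviations of same-numbered libraries correlated at 0.31, -0.41 and -0.49, with no common sign. So few values cannot decide whether the numbers pair the libraries. Over 120 alternative values, the 10 fold differences kept their direction in 115, with adjusted p-values from 0.634 to 1.00; the other 5 turned without exercised replicate 3. Leaving out each library gave -0.70 to 0.17 for Mt-nd1, -0.79 to 0.025 for Mt-nd2, -0.89 to 0.079 for Mt-atp6, -0.73 to 0.031 for Mt-co3 and -0.85 to 0.086 for Mt-cyb. The difference in mitochondrial share ran from -6.24 to -0.096 percentage points. Of the shares within the set, those that turned direction ran from -0.15 to 0.47 percentage points for Mt-nd2, -1.21 to 0.21 for Mt-co1, -0.65 to 0.32 for Mt-co2, -0.14 to 0.21 for Mt-atp6 and -0.34 to 0.82 for Mt-cyb. The log2 ratio differences ran from -0.036 to 0.077 for complex IV to I, -0.012 to 0.13 for III to I, -0.036 to 0.16 for V to I, -0.13 to 0.073 for IV to III and -0.25 to 0.023 for Mt-nd6 to the other complex I genes. The causes were not tested. With 3 rats a group, no single permutation test can pass 0.05.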

Other observations

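Of the 45 ratios between single genes of the set, 4 did not overlap between groups, where 7.37% of all tested genes did not overlap by CPM, so the count is near that share and no pattern is read from it. The 4 are named after their values were seen. Mt-co3 to Mt-nd5 was 3.28, 3.84 and 3.43 in exercised replicates 1, 2 and 3, against 2.93, 2.93 and 3.10 in control replicates 1, 2 and 3. Mt-co3 to Mt-nd4 was 2.40, 1.90 and 2.26 in the exercised libraries, against 1.82, 1.81 and 1.83 in the controls. Mt-co1 to Mt-nd5 was 7.99, 9.12 and 8.57 in the exercised libraries, against 7.96, 7.90 and 7.58 in the controls. Mt-co2 to Mt-nd4 was 1.229, 1.222 and 1.409 in the exercised libraries, against 1.220, 1.219 and 1.137 in the controls. The ratios share genes and libraries, and the smallest p over the 45, adjusted by the Benjamini-Hochberg method, was 0.9 by exact permutation tests.

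Libraries alike in composition were not always alike in total. Control replicates 1 and 2 differed 1.53-fold in mitochondrial share, and their compositions differed by a root mean square log2 value of 0.05 over the 10 genes, the smallest of the 15 pairs of libraries. Control replicate 3 differed from control replicates 1 and 2 by 0.12 and 0.11. Exercised replicates 1 and 3 differed most, by 0.25. Exercised replicate 3, with the lowest share of all, differed in composition from control replicates 1, 2 and 3 by 0.10, 0.09 and 0.15, less than from exercised replicates 1 and 2, at 0.25 and 0.18.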
